A study of Mus musculus with 6 samples.

Results

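Nlrp5, Ooep, Tle6, Khdc3, Padi6, Nlrp14, Zar1, Npm2 and Oosp1 are 9 genes of the oocyte, grouped here as maternal-effect genes. Products of maternal-effect genes are laid down in the egg and act on the early embryo, whereas Oosp1 is listed as an oocyte-secreted protein. The 9 genes were chosen by name, from the subcortical maternal complex, the cytoplasmic lattices and the maternal store, with Oosp1 added. All 9 were present among the 27098 genes of the count table. RNA sequencing libraries were made from whole ovaries of 3-day-old mice held for 2 h in DMEM/F12 with antibiotics. The 3 control libraries came from medium with no addition and the 3 PRP libraries from medium with 2% platelet-rich plasma (PRP), a plasma fraction enriched in platelets. The series text calls the plasma human and thrombin-activated, and no control with thrombin or other plasma is named in the labels. Strain is not given in the labels, nor whether libraries of a group came from separate animals or cultures, so the p-values measure only the spread between these libraries, which may be technical.

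Each library held 35568000 to 36568367 counts. The oocyte markers Ddx4, Dazl, Zp3, Gdf9 and Nobox summed to 746 to 1005 CPM (counts scaled by the TMM-adjusted library total) in control and 789 to 1091 CPM in PRP. Over the 6 libraries Zp3 ranged most widely, from 214 to 521 CPM. Nobox ranged from 206 to 271 CPM, Gdf9 from 108 to 150, Dazl from 69.0 to 113.6 and Ddx4 from 80.8 to 89.2. Pregranulosa markers summed to 995 to 1178 CPM over the 6 libraries, and the testis somatic markers, of which 2 of 3 were tested, to 33.2 to 53.3 CPM. Red cell genes summed to 1309 CPM in control 3 and to 108 to 225 CPM in the other 5 libraries.

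In the growing oocyte the subcortical maternal complex gathers beneath the plasma membrane, where NLRP5 (also called MATER), OOEP (FLOPED), TLE6 and KHDC3 (FILIA) assemble with one another. The cytoplasmic lattices are fibrous structures that fill the oocyte cytoplasm and store maternal proteins, and they need PADI6 to form. Embryos of females that lack one of several of these genes stop dividing at the first cleavages. Transcription of these genes is known to start as follicles form and to increase as the oocyte leaves dormancy and grows. At this age most oocytes of the mouse ovary lie in primordial follicles, with a few follicles already growing.

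All 9 transcripts were detected in every library, and Padi6 was among the most abundant transcripts of the whole ovary, at rank 14 of 17475 genes tested by mean CPM. No member passed the test of PRP against control. Differences between the libraries of a group were larger, by up to 3.53-fold between the lowest and the highest library (Oosp1). All 9 genes were lowest in the library numbered 2 in both groups, as were 20.1% of the genes tested. Within each replicate number, 7 of the 9 were higher in PRP, against 16.8% of the genes tested, and Tle6 was lower, against 16.3%. The members rose and fell together over the libraries, so these counts are not separate observations.

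The genes lie on 7 chromosomes of GRCm38. Nlrp5 (Entrez 23968, chr7:23385889-23441923, plus strand, 16 exons) and Nlrp14 (Entrez 76858, chr7:107113455-107198103, plus strand, 11 exons) share chromosome 7. Ooep (Entrez 67968, chr9:78376903-78378588, minus strand, 3 exons) and Khdc3 (Entrez 66991, chr9:73101381-73106631, plus strand, 3 exons) share chromosome 9. Tle6 (Entrez 114606) is at chr10:81590904-81601185 on the minus strand with 14 exons, and Padi6 (Entrez 242726) at chr4:140727355-140742643 on the minus strand with 16 exons. Zar1 (Entrez 317755) is at chr5:72577113-72581361 with 4 exons, Npm2 (Entrez 328440) at chr14:70647296-70661802 with 9 exons and Oosp1 (Entrez 170834) at chr19:11667460-11691051 with 5 exons, all on the minus strand. Exon numbers are those of the longest coding GENCODE transcript. Npm2 shares 39 exonic bases with Xpo7 on the same strand, and Khdc3 shares 790 with the gene model Gm20509, whose symbol is not in the count table. Transcripts of 5 members matched another GENCODE gene over at least 200 bases, and none of these other genes has its symbol in the table. The closest matches were 98.3% identity over 361 bases for Khdc3 (Gm20509), 86.9% over 206 bases for Ooep (Mum1), 97.9% identity over 517 bases for Nlrp5 (Nlrp5-ps), 95.2% over 1083 bases for Zar1 (Gm15847) and 93.6% over 357 bases for Tle6 (Gm5190). How reads shared with these matches, or with Xpo7 for Npm2, were counted was not stated by any source used here. This makes the levels of the 5 matched members and of Npm2 uncertain, to an extent not measured. The match of Ooep is 206 bases long, beside a transcript of 2138 bases.

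RefSeq promoter windows of GRCm38.p6 matched 7 members, Nlrp14 and Npm2 being the others. Where a gene had 2 windows (Nlrp5 and Tle6) the most upstream was used. The windows of Tle6, Khdc3 and Zar1 lie inside the RefSeq gene spans given above, so their bases are not upstream of the whole gene. The bases before the start of 4 members are shown because Nlrp5 and Padi6 had the highest transcript levels per length, Ooep shares a motif with Nlrp5, and Tle6 differed from the others in its pattern over the libraries. Capitals mark the E-box CANNTG, bound by basic helix-loop-helix factors such as FIGLA, the NOBOX core TAATTG or TAATTA, and the LHX8 element TGATTG, each searched on both strands. Each run is printed 5′ to 3′ on the gene's strand up to the first annotated exon: Nlrp5 is chr7:23385639-23385888 (plus), Ooep chr9:78378726-78378838 (minus), Tle6 chr10:81601074-81601150 (minus) and Padi6 chr4:140742644-140742893 (minus).
Nlrp5: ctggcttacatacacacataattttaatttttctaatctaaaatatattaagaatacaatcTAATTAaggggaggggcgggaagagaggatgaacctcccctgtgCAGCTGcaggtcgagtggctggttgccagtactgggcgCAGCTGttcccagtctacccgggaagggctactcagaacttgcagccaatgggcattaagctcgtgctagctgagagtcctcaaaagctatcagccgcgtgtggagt
Ooep: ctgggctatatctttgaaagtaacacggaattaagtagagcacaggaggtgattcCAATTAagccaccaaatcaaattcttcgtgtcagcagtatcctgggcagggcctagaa
Tle6: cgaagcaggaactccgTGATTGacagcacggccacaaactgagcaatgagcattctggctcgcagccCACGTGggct
Padi6: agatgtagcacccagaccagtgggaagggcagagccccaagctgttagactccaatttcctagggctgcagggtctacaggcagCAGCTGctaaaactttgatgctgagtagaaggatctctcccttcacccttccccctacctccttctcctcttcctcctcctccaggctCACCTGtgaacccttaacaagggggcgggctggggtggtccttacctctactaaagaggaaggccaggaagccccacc

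In the Nlrp5 window the NOBOX core began at -189 and the E-boxes at -145 and -107, counted in bases from the RefSeq start. The Ooep window held a NOBOX core at -195 and an E-box at -78, beyond the bases shown. The Padi6 window held E-boxes at -166 and -78 and neither of the other motifs. LHX8 elements occurred in the Tle6 window only, at -234 and -163, beside E-boxes at -183 and -119; the second of each lies beyond the bases shown. An E-box was found in 7 of the 7 member windows and in 66.2% of all 32851 windows in the RefSeq table. Those of Ooep, Khdc3 and Zar1 all lay at or beyond the first base of an annotated exon on the same strand. The NOBOX core was found in 2 of 7 against 11.3% of all windows, and the LHX8 element in 1 of 7 against 12.7%. None of these motifs overlapped another of a different kind in the bases shown. A match of letters is a description and not a binding site.

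**Figure D1:**
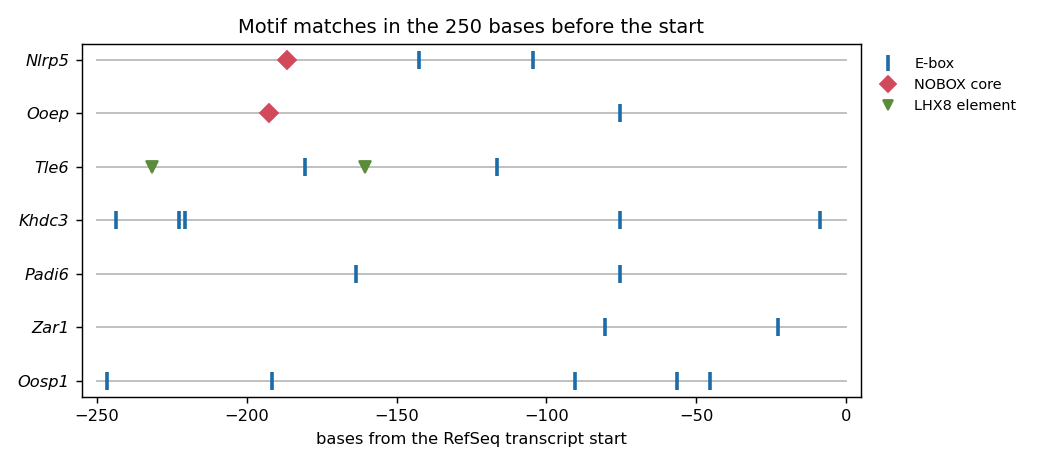
Positions of motif matches in the 250 bases before the RefSeq transcript start of 7 members. The x axis gives bases from the start, and each row is 1 gene. The windows of Tle6, Khdc3 and Zar1 lie inside the gene span. E-boxes occur in every row, NOBOX cores in the rows of Nlrp5 and Ooep, and LHX8 elements in the row of Tle6. The E-boxes of Ooep, Khdc3 and Zar1 lie at or beyond the first annotated exon base.

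Levels of different genes were compared as CPM per kb of the longest coding GENCODE transcript. Padi6, a catalytically divergent member of the peptidylarginine deiminase family, stood at 666 ± 151 CPM per kb (SD over 6 libraries), and its lowest library lay above the highest library of any other member. Nlrp5, an NLR protein of the subcortical complex, was at 180.5 ± 80.9, Tle6, a relative of the Groucho corepressors, at 142 ± 46, and Nlrp14, an NLR protein of the oocyte, at 134 ± 29. These 3 genes overlapped: Nlrp5 exceeded Tle6 in 4 of 6 libraries, and Tle6 exceeded Nlrp14 in 3 of 6. Npm2, the histone chaperone nucleoplasmin, was at 84.2 ± 19.7 and Ooep, a small KH-like RNA-binding fold protein, at 77.0 ± 14.1, with Npm2 above Ooep in 4 of 6 libraries. Khdc3, a KH-domain protein, was at 62.3 ± 14.2 and below Ooep in 5 of 6. Zar1, a zinc-finger protein that binds stored maternal mRNA, was at 31.6 ± 12.03, and Oosp1, an oocyte-secreted protein, at 3.02 ± 1.42 CPM per kb. The longest GENCODE transcript of Ooep has 2138 bases, whereas the whole RefSeq gene spans 1686 bases, and over that span its level was 97.6 CPM per kb, above the mean of Npm2. The span is genomic and includes any introns, so the level over a RefSeq transcript would be no lower than 97.6 CPM per kb. By this measure the means of the 4 subcortical complex genes ran from 62.3 to 180.5 CPM per kb. Reads shared with near copies and the choice of transcript length leave their relative levels uncertain.

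**Figure D2:**
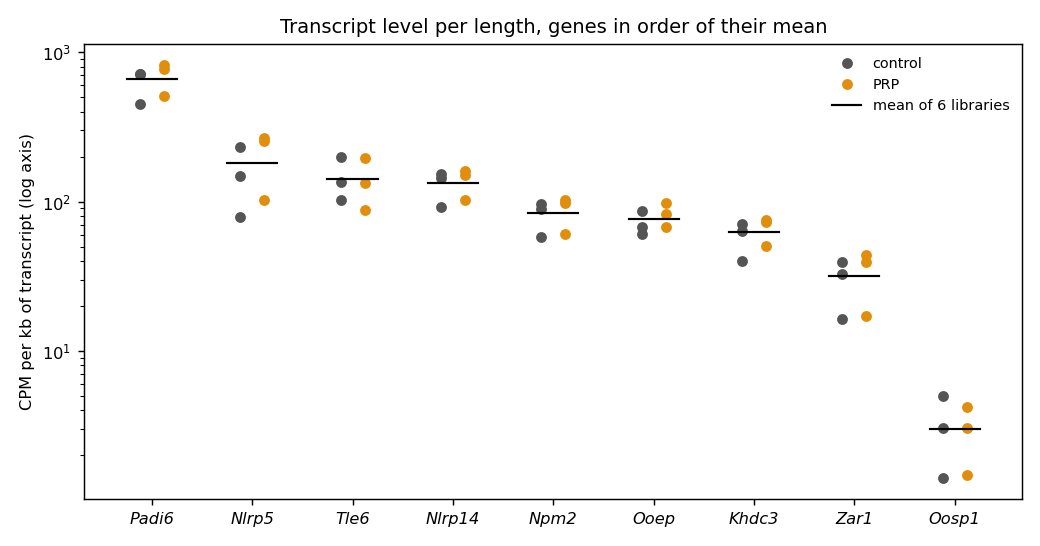
Level of each gene in CPM per kb of transcript on a log axis, ordered by the mean of the 6 libraries (bars), with 3 control and 3 PRP libraries as points. Padi6 lies above all others at 450 to 826, Oosp1 lies below all others at 1.40 to 4.96, and the ranges of most neighbours in between overlap.

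Within the subcortical complex, Nlrp5 had 814, 276 and 523 CPM in controls 1 to 3 and 931, 362 and 894 CPM in PRP 1 to 3. The libraries numbered 2 were lowest in both groups, the groups overlapped, and control 3 lay well below PRP 3. Ooep had 184, 129 and 145 CPM in control and 209, 143 and 177 CPM in PRP. Its spread was the smallest of the 9 genes, at 1.62-fold between the lowest and the highest library. Khdc3 had 107, 67.4 and 119.8 CPM in control and 127, 84.2 and 123 CPM in PRP. It was low in number 2 and alike in numbers 1 and 3. Tle6 had 271, 206 and 399 CPM in control and 267, 176 and 392 CPM in PRP. It was the member that was highest in number 3 by a wide margin in both groups, and PRP and control of the same number were close in numbers 1 and 3.

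Among the lattice genes, Padi6 had 1661, 1049 and 1674 CPM in control and 1926, 1196 and 1816 CPM in PRP. Nlrp14 had 499.6, 301 and 470.4 CPM in control and 527, 336 and 497 CPM in PRP. In both, numbers 1 and 3 lay near each other and number 2 was lower, and the groups overlapped. Control 3 was the highest control for Padi6 and control 1 for Nlrp14.

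Of the store, chromatin and secreted-protein genes, Zar1 had 47.0, 23.3 and 56.3 CPM in control and 63.0, 24.6 and 56.7 CPM in PRP. Npm2 had 89.3, 57.8 and 96.1 CPM in control and 97.6, 60.6 and 102 CPM in PRP. Oosp1 had 173, 49 and 104 counts in control and 148, 52 and 107 counts in PRP. Its small counts set it apart from the other members, which had at least 837 counts in every library, and make its differences the least precise. The 3 genes shared the low value in number 2, and in none were the groups separate.

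**Figure D3:**
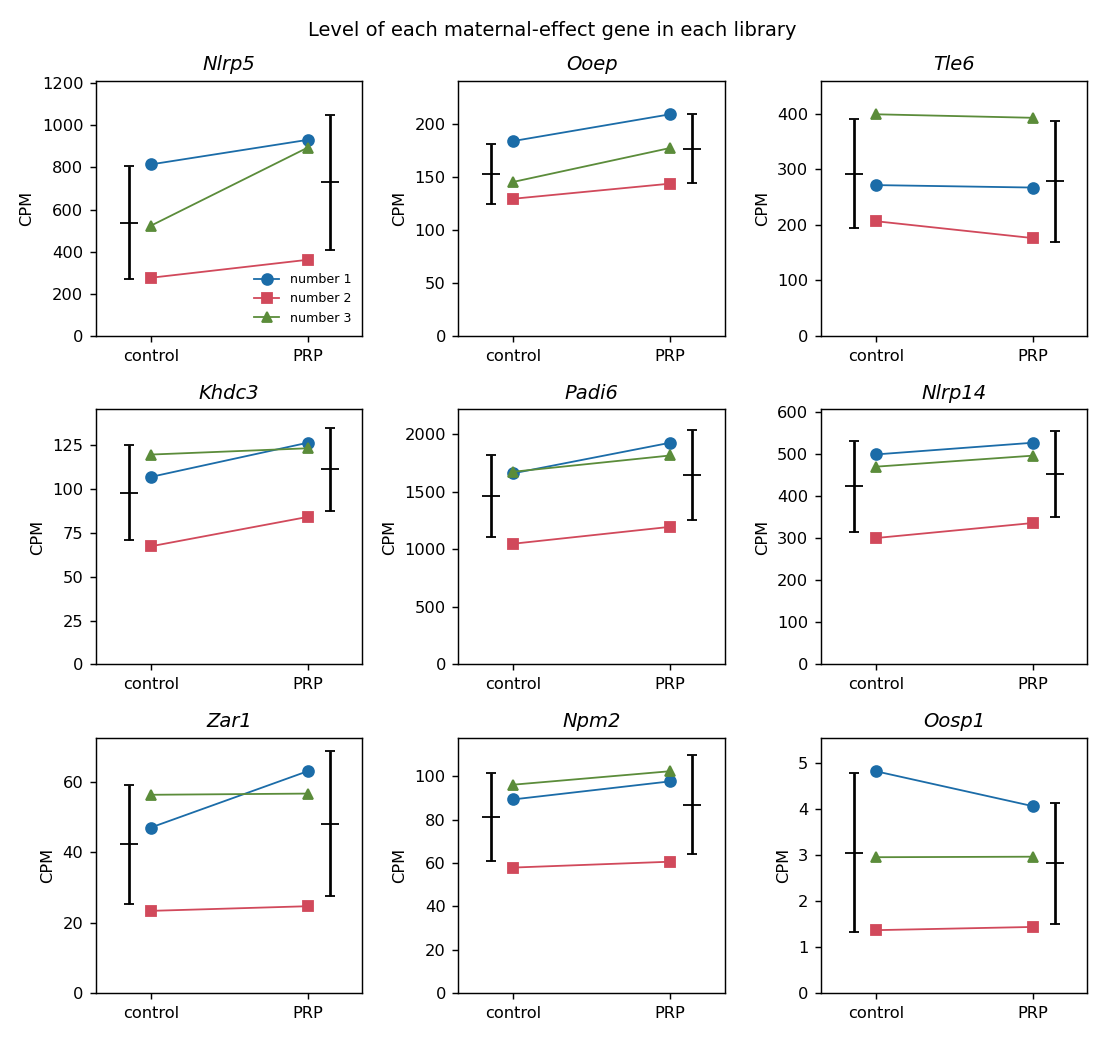
CPM of each gene in control and PRP libraries on linear axes from 0; lines join libraries of the same replicate number, and the horizontal ticks with bars are the group mean ± SD (n = 3). In each of the 9 panels the library numbered 2 (red squares) is lowest in both groups, and Tle6 is highest in number 3.

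The dependence on replicate number was tested because the libraries of the same number resembled each other across all genes; this test was chosen after seeing the data, and the pairing itself was read from the same expression values. In edgeR's F test of replicate number, 8 of 9 members passed the adjusted threshold of 0.05 over all genes, where 12.6% of the genes tested did. Adjusted p-values (edgeR quasi-likelihood test, Benjamini-Hochberg) ran from 9.53e-08 for Tle6 and 1.71e-07 for Padi6 to 0.00521 for Oosp1. Nlrp5 did not pass (adjusted p = 0.0732) although its mean in number 1 was 2.74-fold that in number 2. The lowest value was in number 2 in both groups for 9 of 9 members and for 20.1% of the genes tested. Zar1 was 2.29-fold higher in number 1 and 2.36-fold higher in number 3 than in number 2, Padi6 1.60-fold and 1.55-fold, and Ooep 1.44-fold and 1.18-fold. Number 3 exceeded number 1 past the threshold in Tle6, by 0.56 ± 0.06 on the log2 scale (SE, adjusted p = 5.18e-05), as in 2.47% of the genes tested. Ooep fell by 0.29 ± 0.06 in the same contrast (adjusted p = 0.0123), as did 1.46% of the genes, and the other 7 members did not pass. Stroma markers moved the same way, with 5 of 5 lowest in number 2 in both groups: their sum was 2518 CPM in control 2 against 2821 and 3220 in the other controls, and 2791 CPM in PRP 2 against 3307 and 3280. Their part in the result was not tested.

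Over the 6 libraries, Pearson's r of log2 CPM among the 8 members other than Tle6 ran from 0.74 to 0.99, with a median of 0.92, over 28 pairs of genes. For Tle6 with each of the 8 others it ran from 0.33 (Ooep) to 0.87 (Npm2), with a median of 0.74. These values describe 6 libraries that share replicate numbers, and genes are not independent of one another. The 5 closest in pattern of 10713 other genes with a mean of at least 10 CPM were Dph6 (r = 0.998 with the members' mean profile), Kank2 (0.998), Pdzrn3 (0.991), Rbl2 (0.991) and Nedd4 (0.991). Nedd4 had 1259 CPM in control 2 and 1262 CPM in PRP 2 against 1404 to 1468 CPM in the other 4 libraries, a far smaller swing than that of the members. With 6 libraries, r was above 0.9 for 4.07% of those genes.

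The germ cell reference, 6 genes transcribed in dormant as well as growing oocytes, showed another order of libraries. None of the 6 was lowest in number 2 in both groups, and 2 of 6 passed the replicate number test. The RNA helicase gene Ddx4 stayed between 80.8 and 89.2 CPM in all 6 libraries, and Tdrd1, a piRNA pathway gene, was highest in number 2, at 295 CPM in control and 297 CPM in PRP against 240 to 252 CPM elsewhere. The geometric mean of the 6 reference genes was itself highest in number 2, at 81.7 CPM in control 2 and 75.3 CPM in PRP 2. It was 62.1 to 70.1 CPM in the other libraries. Divided by it, Padi6 stood at 23.7, 12.8 and 24.3 in controls 1 to 3 and at 31.03, 15.9 and 25.9 in PRP 1 to 3. All 9 ratios were lowest in number 2 in both groups, which had to follow from a low numerator and a high divisor there. In bulk ovary, fewer cells that express a gene and less of its RNA per cell cannot be told apart. The division by the reference was chosen after seeing the data.

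The pattern was shared with the zona pellucida and oocyte growth factor genes, of which 5 of 5 were lowest in number 2 in both groups and 5 of 5 passed the replicate number test. The medians of the log2 ratio of numbers 1 and 3 over number 2 were 0.70 for the 9 members, 0.76 for these 5 genes, -0.15 for 7 oocyte transcription regulators and -0.19 for the germ cell reference, against 0.0027 for all genes tested. Of 28 tested genes of the other maternal-effect and oocyte-store list, 11 were lowest in number 2 in both groups, with a median of 0.22. The replicate number test, which has no direction, was passed by 10 of the 28. Only 3 of the 28 were lower in number 2 than in numbers 1 and 3 with an adjusted p under 0.05 in each edgeR contrast. The same held for 8 of 9 members, 5 of 5 zona pellucida and growth factor genes and 2.44% of the genes tested. H1f8, the oocyte linker histone, was at 24.05 and 31.2 CPM in the libraries numbered 2 and at 35.5 to 47.7 CPM in the other 4. Ybx2, a germ cell Y-box protein that coats stored mRNA, went the other way, at 397 and 400.0 CPM in number 2 against 314 to 365 CPM. Figla, which activates zona genes, had 93.2 and 99.9 CPM in number 2 against 66.3 to 87.6 CPM, and Nobox, an oocyte homeobox factor, had 230 and 241 CPM in number 2 against 206 to 271 CPM.

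**Figure D4:**
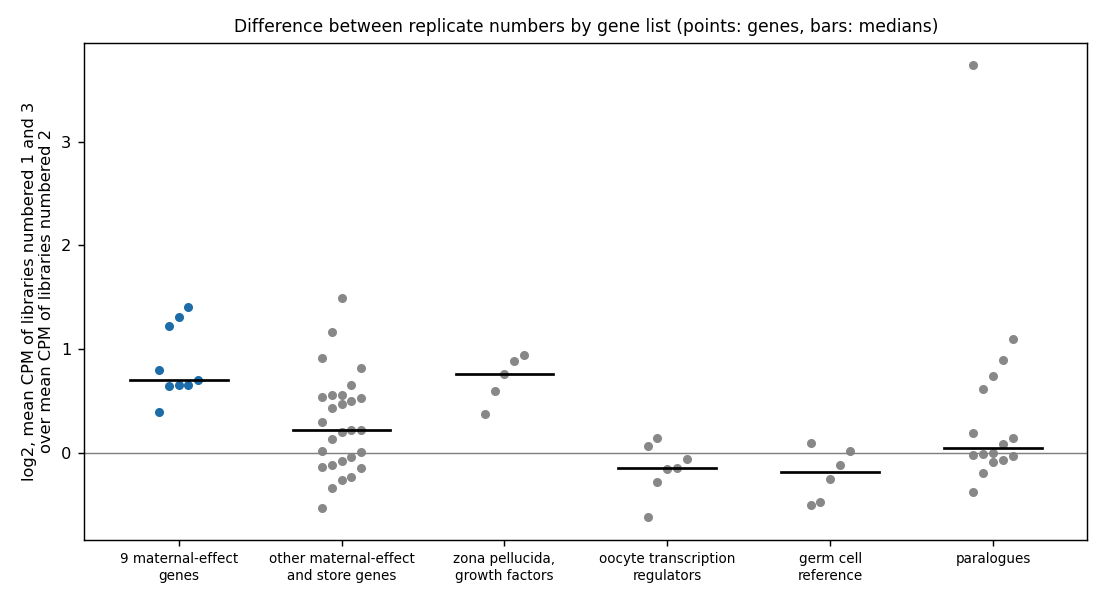
Log2 ratio of the mean CPM of the libraries numbered 1 and 3 over those numbered 2, for each tested gene (points) of 6 lists, with list medians as bars. The 9 members lie at a median of 0.70 and the zona pellucida and growth factor genes at 0.76, whereas the germ cell reference has a median of -0.19; the paralogue near 3.7 is Padi4.

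PRP was compared with medium alone because the study asked whether platelet-rich plasma activates dormant follicles. Without pairing, 0 of 9 members passed an adjusted p of 0.05 in edgeR, as for 0% of the genes tested, and 0 of 9 had an unadjusted p under 0.05 in edgeR, DESeq2 or limma-voom, where 3.19% of the genes did in edgeR. With the replicate number as a block, 0 of 9 passed and 0.12% of the genes tested did. The groups did not separate for any member (0 of 9, against 9.21% of the genes tested). The median log2 fold change of the 9 members was 0.17 both without and with the block, beside 0.0013 and 0.0028 for all genes tested. The unpaired 95% interval of Padi6 was -0.47 to 0.81 and that of Nlrp5 -1.08 to 1.95, and the upper bound was at least 0.61 for each of the 9.

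Within replicate numbers the members moved more evenly. Higher values in PRP in all 3 numbers were found for 7 of 9 members and 16.8% of the genes tested, and lower values in all 3 for 1 of 9, Tle6, and 16.3% of the genes. Since the members rise and fall together over these libraries, these are not 7 separate observations. In the fit with the block, Padi6 had a log2 fold change of 0.17 ± 0.04 (SE, 95% interval 0.10 to 0.25, edgeR adjusted p = 0.0895), Ooep 0.21 ± 0.05 (0.10 to 0.31, adjusted p = 0.137) and Khdc3 0.20 ± 0.06 (0.08 to 0.32, adjusted p = 0.195). Nlrp14 was at 0.11 ± 0.04 and Zar1 at 0.17 ± 0.08, with intervals above 0 and adjusted p-values of 0.346 and 0.444. These 5 members had an unadjusted p under 0.05, as did 5.31% of the genes tested in the same direction. In the blocked fit without robust estimation, Nlrp5 took the place of Zar1 among the 5 (edgeR adjusted p = 0.1405). In either direction 10.9% of the genes did so. The same held for the block in limma-voom, against 11.2% of the genes (adjusted p of Nlrp5 = 0.09602). With GC content and length correction, Tle6 took that place, against 8.29%. With GC content and length correction in the blocked fit, Zar1 was at 0.08 (adjusted p = 0.838), Khdc3 at 0.13 (0.570), Npm2 at 0.03 (0.933) and Tle6 at -0.15 (0.405), each moved by over 1.5 times, whereas Ooep was at 0.21 and Padi6 at 0.14. The intervals of Nlrp5 (0.45, -0.04 to 0.94), Npm2 (0.10, -0.02 to 0.21), Tle6 (-0.09, -0.20 to 0.01) and Oosp1 (-0.07, -0.58 to 0.45) spanned 0. The upper bound of the blocked fold change was at most 1.27-fold for 7 of the 9, 1.36-fold for Oosp1 and 1.92-fold for Nlrp5. Stroma markers moved alongside: 4 of 5 were higher in PRP in all 3 numbers, with a median blocked log2 fold change of 0.17 and 0 of 5 passing. Of the surface epithelium markers, 4 of 5 were likewise higher in all 3 numbers, with a median of 0.18 and 1 of 5 passing, and their sum was 192 to 198 CPM in control and 207 to 235 CPM in PRP without overlap. Both tested platelet markers were higher in all 3 numbers as well, at a sum of 4.83 to 6.36 CPM in control and 5.71 to 8.31 CPM in PRP. The part of these cell types in the result was not tested.

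The size within each number differed by gene. Nlrp5 was higher in PRP by 0.19, 0.39 and 0.77 on the log2 scale in numbers 1 to 3, the widest range of the 9 genes among those higher in PRP in every number. Zar1 was higher by 0.42 in number 1, 0.08 in number 2 and 0.01 in number 3, and Khdc3 by 0.24, 0.32 and 0.04. Padi6 was even, at 0.21, 0.19 and 0.12, as was Ooep, at 0.19, 0.15 and 0.29. Tle6 was at -0.02, -0.23 and -0.02. Relative to the germ cell reference, which itself differed by -0.18, -0.12 and 0.02 in the 3 numbers, 6 of 9 members were higher in PRP in every number, and the other 3 had no common sign: Tle6 was at 0.15, -0.11 and -0.05, Zar1 at 0.60, 0.20 and -0.01, and Oosp1 at -0.07, 0.19 and -0.02. The sign of Tle6 relative to this reference thus differed from that of its own values in number 1 only. From control 1 to PRP 1, the reference genes Dazl went from 99.9 to 69.0 CPM and Rnf17 from 39.3 to 26.8. Ddx4 went from 89.1 to 87.9 CPM, Tdrd1 from 252 to 240, Mael from 81.5 to 88.2 and Stk31 from 16.5 to 16.6. Whether other reference genes would give the same sign for Tle6 was not tested. In the blocked fit without number 2, Ooep and Padi6 (2 of 9) had an unadjusted p under 0.05, as did 8.93% of the genes tested in either direction. Without number 3, which holds the control with the most red cell RNA, the count was 6 of 9 against 9.92%, and with all libraries it was 5 of 9 against 11.2%.

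**Figure D5:**
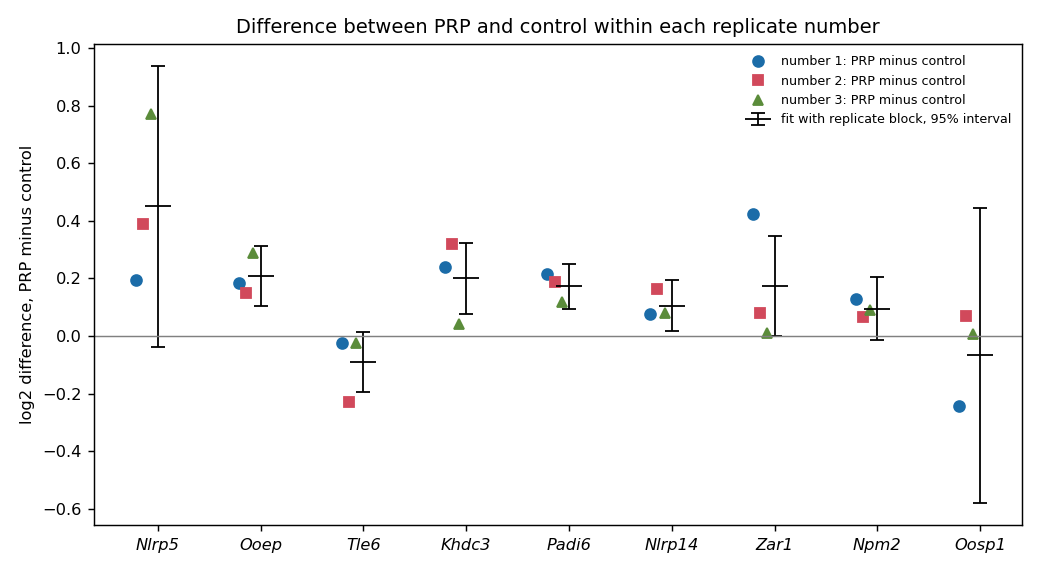
Log2 difference between PRP and control for each gene within replicate numbers 1 to 3 (symbols), and the fit with the replicate block with its 95% interval (bars). The interval of Padi6 runs from 0.10 to 0.25, Nlrp5 spreads from 0.19 to 0.77 over the 3 numbers, and Tle6 lies below 0 in each; 0 of 9 passed.

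The related gene lists gave the same count in the unpaired fit, with 0 passing genes in each. With the block, 0 of 28 other maternal-effect and store genes, 0 of 7 oocyte transcription regulators, 0 of 6 germ cell reference genes and 0 of 16 paralogues passed, and 2 of 5 zona pellucida and growth factor genes passed, namely Zp2 (adjusted p = 0.0331) and Zp3 (0.0411). Both calls were lost with the block in limma-voom (adjusted p = 0.0513 and 0.0669) and without robust estimation (0.114 and 0.140), and on leaving out any 1 replicate number. With GC content and length correction Zp2 passed (0.0367) and Zp3 did not (0.163). Their log2 fold changes of 0.23 ± 0.04 and 0.24 ± 0.04 (SE) are near those of Padi6, Ooep and Khdc3; the difference between genes was not tested. Among the other maternal-effect genes, H1f8 had 36.3, 24.05 and 35.5 CPM in control and 47.7, 31.2 and 40.1 CPM in PRP, with a blocked log2 fold change of 0.31 ± 0.08 (adjusted p = 0.145). Dppa3, which protects the maternal genome's DNA methylation, was at 0.11 ± 0.05 (adjusted p = 0.405), Ybx2 at 0.09 ± 0.04 (0.447) and Oas1d, an oocyte relative of the oligoadenylate synthetases, at 0.15 ± 0.07 (0.468), all from edgeR with the block. In the list, 20 of 28 had a log2 fold change above 0 and the median was 0.09. Zp1 was at 0.18 ± 0.06 (adjusted p = 0.254) and Gdf9, an oocyte growth factor, at 0.10 ± 0.06 (0.556). Of the germ cell reference, Rnf17 was at -0.26 ± 0.09 (adjusted p = 0.287), Dazl, an RNA-binding translation regulator of germ cells, at -0.16 ± 0.13, Stk31 at -0.12 ± 0.10, Tdrd1 at -0.03 ± 0.04 and Ddx4 at 0.03 ± 0.05. Of the regulators, Figla was at 0.11 ± 0.06, Nobox at 0.08 ± 0.05, the homeobox factor Lhx8 at -0.11 ± 0.06 and Taf4b, a TFIID subunit of germ cells, at -0.12 ± 0.07.

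The paralogue list holds relatives of the members, most of them known from other tissues. Tle5, a short Groucho relative, was at 0.09 ± 0.05 and Nlrx1, a mitochondrial NLR protein, at 0.32 ± 0.15, with 7.19, 6.58 and 7.10 CPM in control and 8.71, 8.5 and 8.89 CPM in PRP (blocked edgeR adjusted p = 0.515 and 0.426). Padi3 and Nlrp10 had at most 0.471 and 3.26 CPM in any library. Of the 16 tested paralogues 4 passed the replicate number test, and 4 were lowest in number 2 in both groups. Khdc1a and Khdc1b were among the 4 in each count. Khdc1a and Khdc1b, relatives of Khdc3 and Ooep named after their values were seen, were at 16.9 and 23.1 CPM in control 2, 21.1 and 26.9 CPM in PRP 2 and 27.1 to 57.6 CPM in the other libraries.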

How the data were processed

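RNA was sequenced from 6 libraries of cultured mouse ovary, 3 per group. The authors deposited a table of unnormalized counts for 27098 genes, named by symbol and Entrez number. The build was GRCm38 (mm10), per the submitters' processing notes; no aligner, counter or strand setting is given in the sources used here. Columns were matched to samples by title; the column of PRP 3 has its letters transposed and was assigned by elimination. No duplicates were found (Poisson chi-square per degree of freedom between libraries of a group 13 to 29.4).

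Testing used edgeR 4.0.16 (R 4.3.3; genes kept by filterByExpr, TMM, robust quasi-likelihood F test, 17475 genes), two-sided, with Benjamini-Hochberg adjustment over all genes tested at 0.05. All 9 members passed the filter. Standard errors derive from the fold change and its F statistic. Alternatives were DESeq2 1.42.0, limma-voom (limma 3.58.1), other scaling and filters, left-out libraries and the replicate number as a block. Same-numbered libraries deviated together (r = 0.24, 0.40 and 0.33 of their distance from group means, other pairs at most -0.02). The numbers were therefore taken as pairs, on the data and on no label. The scripts were tested on simulated data. Positions and promoters came from RefSeq (GRCm38.p6), transcript lengths, exons and GC content from GENCODE M21. Near copies are GENCODE transcripts of other genes matched over at least 200 bases.

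The members and lists were chosen with earlier results of these data known. The rule for named genes took the 9 members, the 4 genes with the smallest blocked p of each other list, Ddx4, Dazl, Nobox, Figla, Zp2 and Zp3, and the 5 genes of most similar pattern; other genes named are marked or describe a list. Log2 CPM used a prior count of 2.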

Additional observations from a re-analysis of the deposited data

How the results depend on the processing

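In the unpaired analysis the number of genes passing was 0 and the number of members passing was 0 with DESeq2, limma-voom, RLE, upper-quartile or no scaling factors, both filters, non-robust estimation and leaving out each library. With the replicate block 21 genes passed, 11 with the block and GC content and length correction (93.4% of genes had values), and 0 with the block in limma-voom or without robust estimation; the cause was not tested. Leaving out 1 replicate number in the blocked fit gave 1 to 19 genes, the fewest without number 2, of which 0 were members. No scaling moved the median of all genes by more than 0.01.

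Directions held for Nlrp5 and Ooep under all 21 alternatives, and for every member under every alternative that kept all 6 libraries. When single libraries were left out of the unpaired fit, log2 fold changes ran from 0.13 to 0.87 for Nlrp5, 0.07 to 0.36 for Ooep, -0.40 to 0.22 for Tle6, -0.02 to 0.35 for Khdc3, -0.02 to 0.36 for Padi6, -0.10 to 0.27 for Nlrp14, -0.10 to 0.50 for Zar1, -0.09 to 0.30 for Npm2 and -0.47 to 0.39 for Oosp1. Signs turned without control 2 for Khdc3 (-0.02443), Padi6 (-0.0172), Nlrp14 (-0.09526), Zar1 (-0.1011) and Npm2 (-0.09271), and without control 1 for Oosp1 (0.3855). They also turned without control 3 for Tle6 (0.2218), without PRP 1 for Nlrp14 (-0.0235) and Zar1 (-0.05346), without PRP 2 for Tle6 (0.1749) and Oosp1 (0.2061), and without PRP 3 for Npm2 (-0.03539). The cause was not tested. With the block and 1 number left out, all but Oosp1 (-0.13 to 0.03508, the latter without number 1) kept their sign, with Padi6 at 0.15 to 0.20, Ooep at 0.17 to 0.24 and Tle6 at -0.13 to -0.02. Depth limits Oosp1 only, at 49 to 173 counts.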

Other observations

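Padi4, the neighbour of Padi6 on chromosome 4 with 2864 bases between them and a deiminase best known from granulocytes, was detected almost entirely in the libraries numbered 3. It had 569 counts in control 3 and 473 counts in PRP 3, against 6 to 23 counts in the other 4 libraries (edgeR replicate number test, adjusted p = 1.22e-06). Padi6 did not follow it, with 58978 counts in control 3 against 59574 in control 1. Padi2, further along the same cluster, had 346 to 421 counts in all 6 libraries. Leukocyte markers summed to 33.9 and 32.0 CPM in the libraries numbered 3 and to 27.1 to 32.5 CPM in the others; their part in the Padi4 values was not tested. Padi4 was named after its values were seen.

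The 9 members together took 0.369%, 0.213% and 0.343% of all counts in controls 1 to 3 and 0.418%, 0.240% and 0.401% in PRP 1 to 3, so that number 2 held the smallest share in both groups.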
